A study of Mus musculus with 11 samples.

Results

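The genes described here encode parts of the Nodal signalling pathway: the ligands Nodal and Gdf3, the co-receptor Tdgf1, the receptor Acvr2b, the secreted antagonists Lefty1 and Lefty2 and the intracellular inhibitor Smad7. They were chosen by name, and each was represented by every 2 kb tile that overlapped its annotated GRCm38 span extended by 2 kb on both sides. This gave 72 of the 1362779 tiles in the data, of which 71 passed the filters and were tested. The 7 genes are not all ligands or targets, since Tdgf1 and Acvr2b act in reception of the signal.

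HMCP-seq, a capture method that enriches DNA fragments carrying 5-hydroxymethylcytosine (5hmC), had been applied to genomic DNA of mouse cells. 5hmC is the oxidised form of methylated cytosine that TET enzymes make, and it is not a measure of transcription. DNMT_WT EpiLC (epiblast-like cells) were taken at day 2 (3 libraries). TET_WT cells were taken as embryonic stem cells (ESC) in 2i/Lif at day 0 (3 libraries) and as EpiLC at day 1 (2 libraries) and day 2 (3 libraries). Both lines are wild type, each being the parent of a triple-knockout line (Dnmt1, Dnmt3a and Dnmt3b for DNMT_WT, and Tet1, Tet2 and Tet3 for TET_WT), and the knockout lines were not analysed here. Whether libraries of a group came from separate cultures is not in the labels, so p-values measure only the spread between these libraries. Only 1 line of each kind was sampled, so line and culture cannot be told apart at day 2. DNA of all cells in a sample was pooled, so a mark in more cells and more of the mark per cell cannot be told apart either.

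Nodal is a secreted ligand of the transforming growth factor beta family that holds the epiblast in a pluripotent state and later patterns the embryo. It binds type I and type II activin receptors together with an EGF-CFC co-receptor, and the receptors phosphorylate Smad2 and Smad3, which enter the nucleus with Smad4 and factors such as Foxh1. The pathway limits itself, because it switches on its own antagonists. ES cells and epiblast-like cells both express several of these genes, and culture in 2i/Lif holds ES cells in a naive state that precedes the epiblast-like one.

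The sequence upstream of a gene start matters for this assay, because 5hmC in these cells lies mostly in CpG dinucleotides and CpG-dense starts are usually unmethylated. In a RefSeq promoter table of the build GRCm38.p6, Gdf3, Lefty1 and Lefty2 had no sequence, and Smad7 was left out of this step. For the other 3 genes, the 250 bases before the start given there are shown. They set the CpG content beside the signal over the same place. For Acvr2b that start lies inside the annotated span used for its tiles, and so does its stretch. CpG dinucleotides are in capitals, and each sequence runs 5′ to 3′ on the strand of the gene.
Nodal, chr10:61417722-61417971, plus strand: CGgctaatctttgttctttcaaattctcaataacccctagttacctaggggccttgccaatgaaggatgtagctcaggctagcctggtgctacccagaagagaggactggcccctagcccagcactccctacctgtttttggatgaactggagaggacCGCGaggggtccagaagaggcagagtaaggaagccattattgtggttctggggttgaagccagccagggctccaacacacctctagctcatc
Tdgf1, chr9:110946159-110946408, minus strand: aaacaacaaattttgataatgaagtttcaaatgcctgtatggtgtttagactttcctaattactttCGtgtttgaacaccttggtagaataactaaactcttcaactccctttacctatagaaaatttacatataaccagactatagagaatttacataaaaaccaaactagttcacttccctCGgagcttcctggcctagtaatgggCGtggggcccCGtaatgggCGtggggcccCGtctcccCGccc
Acvr2b, chr9:119401928-119402177, plus strand: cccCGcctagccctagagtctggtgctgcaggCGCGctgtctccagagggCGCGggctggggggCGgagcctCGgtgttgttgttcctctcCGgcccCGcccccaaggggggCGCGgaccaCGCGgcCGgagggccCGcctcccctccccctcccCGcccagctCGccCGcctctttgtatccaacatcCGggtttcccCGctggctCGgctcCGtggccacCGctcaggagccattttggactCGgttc
The Nodal stretch holds 3 CpG, that of Tdgf1 7 and that of Acvr2b 24, against a median of 6 over the 32851 promoters of the table. Of all promoters, 37.8% hold no more CpG than that of Nodal, 57.0% no more than that of Tdgf1 and 89.3% no more than that of Acvr2b. The Smad-binding word CAGAC, searched on both strands, is present at 1 place upstream of Tdgf1 and 1 upstream of Acvr2b, is not in these letters of Nodal, and is present in 42.2% of all promoters. The Foxh1-binding word AATNNACA, also on both strands, is present at 2 places upstream of Tdgf1, is not in the stretches of Nodal and Acvr2b, and is present in 10.9% of all promoters. These word matches describe the letters and show no binding.

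The libraries held between 7342015 reads in day 1 replicate 2 and 51604034 reads in day 0 replicate 1, recovered from the deposited log2 RPKM values (reads by tile length and library total). Between 10.3% and 31.8% of tiles on chromosomes 1 to 19 and X had no reads. Day 0 replicate 2 stood apart, at 30.4 and 31.1 against the other day 0 libraries in the chi-square of reads per gene divided by its degrees of freedom, where the other replicate pairs had 2.16 to 4.66. In 5hmC, all 5 naive marker genes were called higher at day 2 than at day 0 of TET_WT (limma, adjusted p under 0.05). Their differences were 1.45 to 3.36 log2 units. Also called higher were 2 of 4 epiblast markers (0.09 to 0.69 over the list) and 1 of 4 feeder markers (-0.28 to 0.54). Over all genes 15.3% were called higher. The marker values are those of a DNA mark and name no cell type. Because each value is scaled to its own library, a general gain or loss of 5hmC per cell would not show.

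Each gene was given 1 value per library, the average log2 RPKM of those of its tiles that were tested. A value of 0 corresponds to 1 RPKM, and 1 unit is a doubling of signal per length. Reads over a gene numbered from 19 for Gdf3 in day 1 replicate 2 to 3969 for Acvr2b in DNMT_WT replicate 1. At day 0, Acvr2b (0.97) and Lefty2 (0.43) had the highest means, followed by Lefty1 (-0.65), Smad7 (-0.91), Gdf3 (-1.03), Tdgf1 (-1.62) and Nodal (-1.90). In that order, the libraries of Smad7 overlapped those of Gdf3 and those of Tdgf1 overlapped those of Nodal, while the other neighbours were separate. At day 1 the order was Acvr2b, Lefty2, Lefty1, Smad7, Gdf3, Nodal and Tdgf1, and only Gdf3 and Nodal overlapped among neighbours. At day 2 of TET_WT, Lefty2 (1.33) and Acvr2b (1.29) overlapped at the top. Smad7 (0.63) and Lefty1 (0.27) followed without overlap. Gdf3 (-0.28), Nodal (-0.69) and Tdgf1 (-0.76) came last, each overlapping its neighbours, and Gdf3 overlapped Lefty1 too. In DNMT_WT the order was Lefty2 (1.87), Acvr2b (1.65), Smad7 (1.62), Lefty1 (0.88), Nodal (0.05), Gdf3 (-0.51) and Tdgf1 (-0.54). There the libraries of Acvr2b overlapped those of Smad7, and those of Gdf3 overlapped those of Tdgf1.

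**Figure D1:**
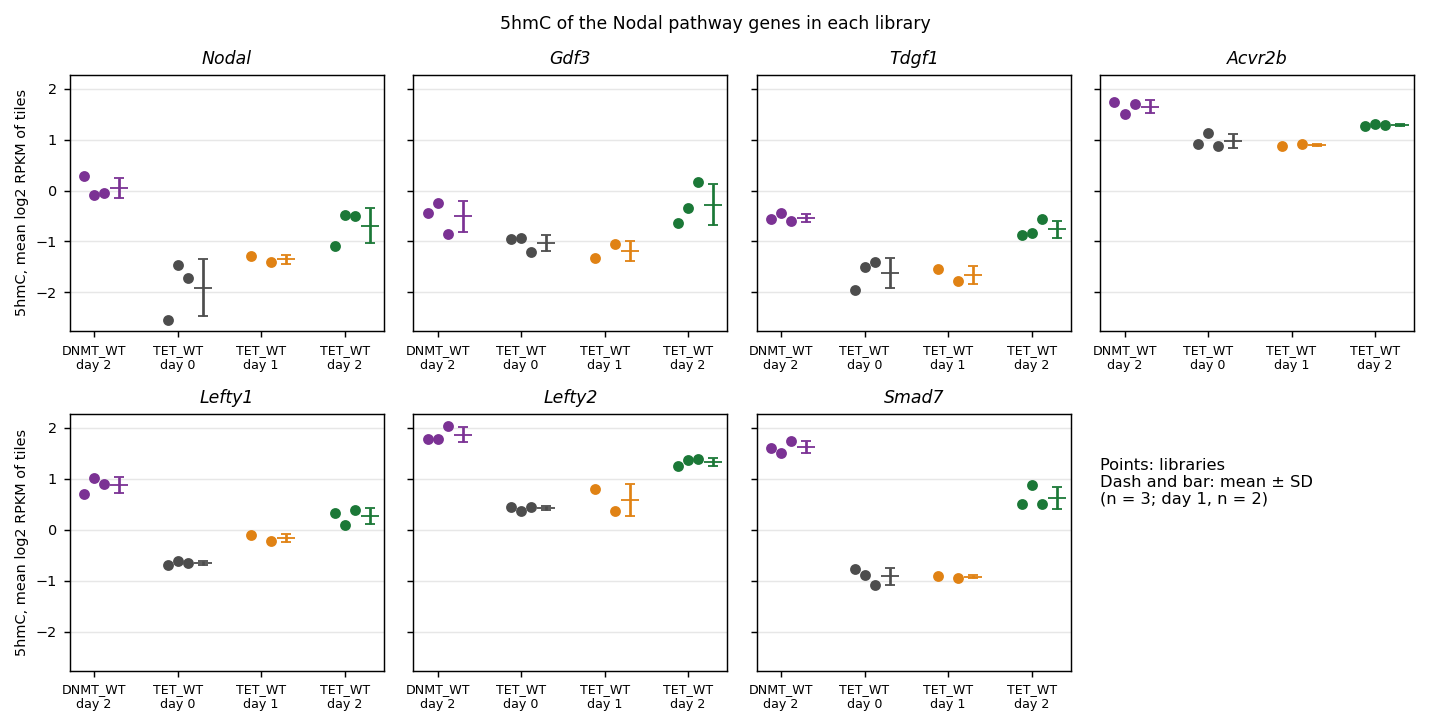
5hmC of each of the 7 genes, as the mean log2 RPKM of its tested tiles (vertical axis), in DNMT_WT at day 2 and in TET_WT at days 0, 1 and 2 (horizontal axis). Points are libraries, and the dash with its bar is the mean ± SD (n = 3, and n = 2 at day 1); in all 7 genes the TET_WT day 2 points lie above the day 0 points, and Smad7 has the widest gap, at 0.63 ± 0.22 against -0.91 ± 0.16.

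Day 2 of TET_WT was compared with day 0 to ask how 5hmC over these genes differed after the change from ES cells to epiblast-like cells. All 7 genes had more 5hmC at day 2, and in all 7 the day 2 and day 0 libraries did not overlap. The largest difference was in Smad7, at 2.91-fold, and the smallest in Acvr2b, at 1.25-fold. By limma with Benjamini-Hochberg adjustment over 20717 genes, all 7 passed an adjusted p of 0.05. Over all genes 17.8% passed, 15.3% as higher and 2.51% as lower, and 23.6% were higher without overlap. The median difference was 0.91 log2 units over the 7 genes and 0.09 over all genes.

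Nodal, on chromosome 10 (61417972 to 61425338), had values of -1.09, -0.48 and -0.51 in the 3 day 2 libraries of TET_WT, against -2.53, -1.47 and -1.71 in the 3 day 0 libraries. Every day 2 library lay above every day 0 library, and day 0 replicate 1 was the lowest of all. That library, the deepest, had no reads in the tiles starting at 61416001 and 61418001. There it held the value set by its depth, -5.63, which lowers its mean. Nodal was higher at day 2 by 1.21 log2 units (SE 0.27, adjusted p = 0.00709), a 2.31-fold difference. Its place among all genes was the 38.5th percentile at day 2, against the 21.2nd at day 0, so its signal stayed below that of the median gene. The second ligand, Gdf3, which can act as a partner of Nodal, lies on chromosome 6 (122605403 to 122610087). It had values of -0.64, -0.35 and 0.16 at day 2, against -0.95, -0.94 and -1.21 at day 0. The day 2 libraries were spread more widely than those of day 0 but did not overlap them. The difference was 0.76 (SE 0.22, adjusted p = 0.0319). Gdf3 no longer passed without day 0 replicate 1 (adjusted p = 0.0602), day 0 replicate 3 (0.101), day 2 replicate 2 (0.0782) or day 2 replicate 3 (0.164), nor with each library centred on its median (0.0855). It also missed the threshold at equal depth, where all libraries are thinned to the same number of reads (0.225), without the variance trend (0.053), with only the groups compared (0.0571) and with a replicate block (0.0521). Nodal differed by 0.90 at equal depth and did not pass (0.0573). With limma-voom on the recovered reads it differed by 1.16 and passed (0.000697).

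Tdgf1, also called Cripto, is the co-receptor that lets Nodal engage the type I receptor, and it lies on chromosome 9 (110939608 to 110946158). It had values of -0.88, -0.83 and -0.57 at day 2, against -1.95, -1.51 and -1.41 at day 0. All day 2 libraries were above all day 0 libraries. The difference was 0.86 (SE 0.20, adjusted p = 0.00861). Acvr2b, a type II activin receptor on chromosome 9 (119401583 to 119442148), is the longest of the 7 genes. Its values were 1.27, 1.31 and 1.30 at day 2, against 0.91, 1.13 and 0.87 at day 0. The day 2 libraries agreed closely, and day 0 replicate 2 came nearest to them. Acvr2b stood at the 90.6th percentile of all genes at day 2 and at the 88.5th at day 0, and it differed by 0.32 (SE 0.10, adjusted p = 0.0338). Tdgf1 did not pass without day 2 replicate 3 (0.0531) or with the span alone (0.0729). Acvr2b did not pass without any one of day 0 replicates 1 and 3 (0.107 and 0.117) and day 2 replicates 1, 2 and 3 (0.0796, 0.109 and 0.0979), and it differed by 0.18 after median centring (0.353) and by 0.13 with 20 kb added on both sides (0.31). Acvr2b also did not pass at equal depth (0.0903), without the variance trend (0.0809), with only the groups compared (0.0699) or with a replicate block (0.0579). All 7 differences stayed positive under that centring, up to 1.41 in Smad7.

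Lefty1 and Lefty2 are secreted antagonists that block Nodal and its co-receptor, and they are neighbours on chromosome 1 (180935022 to 180938401 and 180893108 to 180899107). Lefty1 had values of 0.33, 0.10 and 0.39 at day 2, against -0.68, -0.62 and -0.66 at day 0. Lefty2 had values of 1.24, 1.37 and 1.39 at day 2, against 0.45, 0.38 and 0.45 at day 0. In both genes the day 0 libraries lay within 0.1 log2 units of each other, and the groups were far apart for their spread. Lefty1 was higher at day 2 by 0.93 (SE 0.12, adjusted p = 0.000255), and Lefty2 by 0.91 (SE 0.12, adjusted p = 0.000244). Lefty2 was at the 91.4th percentile of all genes at day 2, against the 73.1st at day 0.

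Smad7, an inhibitory Smad that competes at the type I receptor and recruits ubiquitin ligases to it, lies on chromosome 18 (75367365 to 75395935). It had values of 0.50, 0.88 and 0.51 at day 2, against -0.76, -0.89 and -1.09 at day 0. No library of one group came near the other. The difference of 1.54 (SE 0.13, adjusted p = 1.69e-05) carried Smad7 to the 73.3rd percentile of all genes at day 2, against the 36.2nd at day 0. Lefty1, Lefty2 and Smad7 passed in all 21 alternative settings and left-out libraries that were run. With 20 kb instead of 2 kb added on both sides, the difference was 0.95 in Smad7, 0.55 in Nodal and 0.26 in Gdf3. With the span alone, the difference of Lefty1 was 1.52. Without day 0 replicate 2, the library that stood apart, all 7 genes passed and the differences ran from 0.40 in Acvr2b to 1.56 in Smad7. In that fit 31.6% of all genes passed, and 69.7% of those were higher, against 85.9% with all libraries.

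Along the genes, 28 of the 71 tiles rose at day 2 against day 0 and none fell, by limma over 1183888 tiles. That is 39.4% of the tiles of these genes, where 5.33% of all tiles rose and 2.68% fell. Smad7 had 11 of 17 tiles higher, Acvr2b 6 of 23, Tdgf1 3 of 7, Lefty2 3 of 6, Nodal 2 of 7, Lefty1 2 of 5 and Gdf3 1 of 6. Tiles of one gene share fragments and are not independent of each other. The count was 12 without the variance trend and 11 at equal depth.

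Within Nodal, the signal concentrated at the end away from the start. The tile chr10:61422001-61424000, centred 5.03 kb inside the start, held 48, 54 and 70 reads in the day 2 libraries of TET_WT, against 19, 8 and 28 in the deeper day 0 libraries. It rose by 2.57 log2 units (SE 0.33, adjusted p = 9.84e-11), the largest difference in the gene. At equal depth it differed by 1.75 and did not pass (adjusted p = 0.0669). The next tile, chr10:61424001-61426000, rose by 1.05 (adjusted p = 0.0259). The tile with the highest mean, chr10:61426001-61428000 beyond the gene end, differed by 0.02 (adjusted p = 0.989). The tile chr10:61416001-61418000, which contains the upstream sequence printed above, had 3, 3 and 7 reads at day 2 against 0, 0 and 3 at day 0. Its neighbour inside the gene, chr10:61418001-61420000, had 1, 2 and 3 reads against 0, 4 and 10. Both were nearly empty, and neither difference passed (adjusted p = 0.125 and 0.978). A tile without reads holds a value set by the depth of its library, so read numbers are the safer measure there.

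Gdf3 had 1 rising tile, chr6:122606001-122608000 inside the gene, with 24, 16 and 34 reads at day 2 against 13, 3 and 8 at day 0. It differed by 2.56 (SE 0.58, adjusted p = 0.000629), and at equal depth by 1.82 without passing (0.263). The gene Apobec1 shares 1 of the 6 tiles. The tile of highest mean, chr6:122610001-122612000, differed by 1.13 but did not pass (adjusted p = 0.0545), and chr6:122608001-122610000 had the largest difference downwards, -0.73 (adjusted p = 0.782). In Tdgf1 the largest difference, 2.11 (SE 0.58, adjusted p = 0.00787), lay in chr9:110948001-110950000, upstream of the start. It was supported by 20, 23 and 27 reads at day 2 against 15, 5 and 10 at day 0. The tile chr9:110940001-110942000, near the other end of Tdgf1, rose by 1.96 (SE 0.34, adjusted p = 2.26e-06) and chr9:110938001-110940000 by 1.74 (adjusted p = 0.00684). The Tdgf1 tile of highest mean, chr9:110936001-110938000, differed by 0.22 (adjusted p = 0.792), and chr9:110944001-110946000 by -0.68 (adjusted p = 0.813). The tile over the Tdgf1 start, chr9:110946001-110948000, had 0 to 4 reads in every library and none in 4 of the 11. The upstream Tdgf1 tile was no longer called without day 2 replicate 2 (adjusted p = 0.085) or replicate 3 (0.0577), or at equal depth (0.251).

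Acvr2b carried most of its signal in the second part of the gene, away from the start. The tile chr9:119428001-119430000 had the highest mean of those tested and rose by 0.89 (SE 0.13, adjusted p = 5.36e-08). It held 289, 249 and 294 reads at day 2 against 273, 193 and 311 at day 0, in day 2 libraries with fewer reads in total. The largest difference was 1.22 (SE 0.19, adjusted p = 1.58e-07) in chr9:119418001-119420000. Without the variance trend neither passed (adjusted p = 0.187 and 0.0744), nor did the first at equal depth (0.117). The last tile, chr9:119444001-119446000, lies beyond the gene and reaches into the annotated span of Exog. It differed by -1.91 (SE 0.78) and did not pass (adjusted p = 0.135). The tile chr9:119402001-119404000, which contains most of the CpG-dense sequence printed above, held 1 to 18 reads in the 11 libraries. The rest of that sequence lies in the tile below it. That tile had group means of 0.33, -0.16 and 0.11 at days 0, 1 and 2 of TET_WT and 0.84 in DNMT_WT.

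The 5 tiles of Lefty1 had their highest mean and their largest difference in the same place, chr1:180936001-180938000, within the gene. Its reads numbered 46, 43 and 35 at day 2, against 26, 7 and 33 at day 0, and it rose by 1.94 (SE 0.33, adjusted p = 1.91e-06, and 0.0642 without the variance trend). The tile below it, chr1:180934001-180936000, rose by 1.497 (adjusted p = 0.022). In Lefty2 a tile over the lower end of the span and one just beyond the upper end moved most. The tile chr1:180892001-180894000 rose by 1.35 (SE 0.25, adjusted p = 8.46e-06), or 2.31 at equal depth, and chr1:180900001-180902000 by 1.16 (adjusted p = 4.15e-05). The highest Lefty2 tile, chr1:180898001-180900000, rose by 0.71 (adjusted p = 0.0163), a call lost without day 0 replicate 3 (0.225) and without day 2 replicates 1 or 2 (0.057 and 0.113), and with median centring (0.102), no variance trend (0.332) or equal depth (0.406). The noncoding gene Gm39715 shares 3 of the Lefty1 tiles, so signal there cannot be assigned to one gene.

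In Smad7 the rise covered most of the gene. The largest difference, 2.64 (SE 0.34, adjusted p = 2.55e-10), was in chr18:75386001-75388000, where reads numbered 44, 58 and 52 at day 2 against 16, 14 and 12 at day 0. At equal depth it differed by 2.05 and did not pass (adjusted p = 0.162). The highest tile, chr18:75394001-75396000 at the upper end of the gene, rose by 1.93 (SE 0.18, adjusted p = 6.1e-18). It held 178, 155 and 163 reads at day 2 against 88, 57 and 79 at day 0. On the log2 scale every one of the 17 tiles had a positive difference, down to 0.10 in chr18:75368001-75370000. That tile had no reads in 6 of the 11 libraries. The depth-set values of empty tiles were -5.63 to -4.84 for day 0 but higher, -4.75 to -4.27, for day 2. Its day 2 mean, -4.53, lay within the latter range. The sign of this smallest difference therefore cannot be read as a rise in reads. Each of the lncRNA genes Gm20544 and Gm41776 shares 2 tiles with Smad7.

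**Figure D2:**
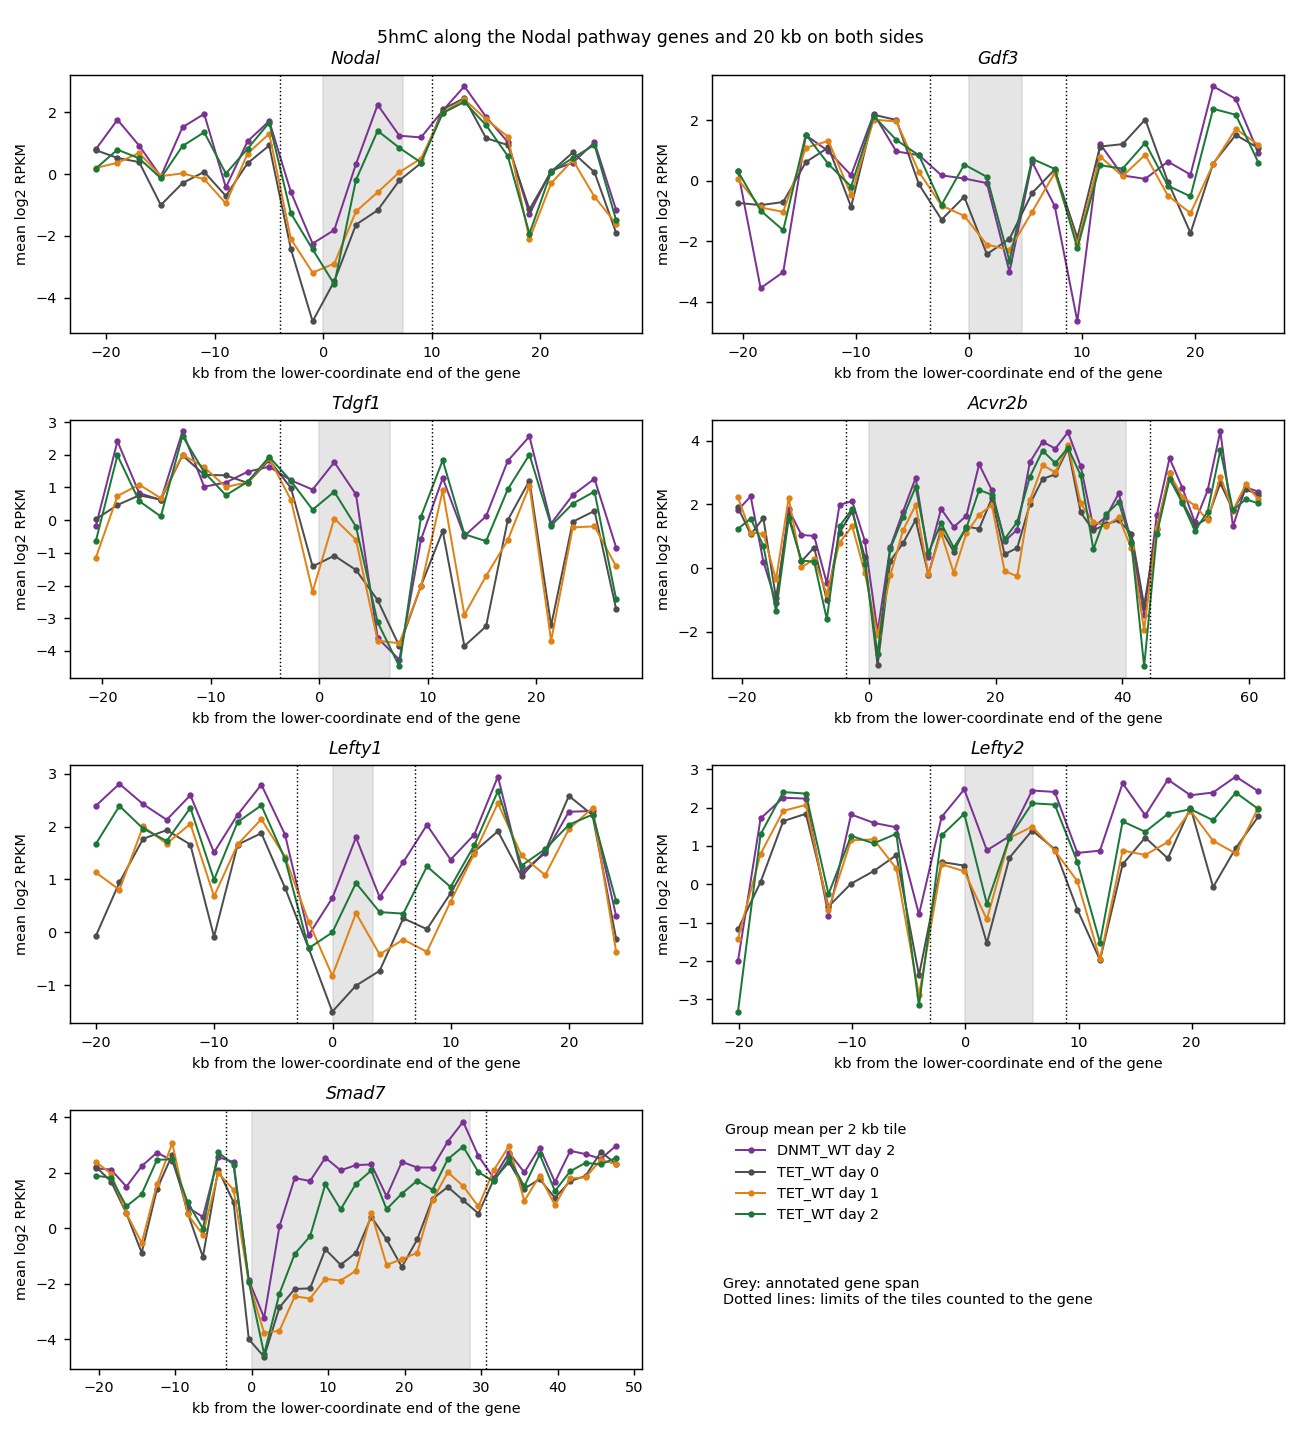
Group means of log2 RPKM per 2 kb tile (vertical axis) against the distance in kb from the lower-coordinate end of each gene (horizontal axis), with the gene span in grey and the limits of the counted tiles dotted. The day 2 lines of both cell lines run above the day 0 line over most of Smad7. Near one end of Nodal, Tdgf1, Acvr2b and Smad7 all lines dip, to means as low as -4.76, -3.86, -3.06 and -4.62 at day 0.

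The surroundings gave a measure of how local these differences were. In the 18 tiles between 2 and 20 kb from each gene, the mean difference of day 2 from day 0 was 0.29 for Nodal, 0.10 for Gdf3, 0.82 for Tdgf1, -0.13 for Acvr2b, 0.50 for Lefty1, 0.55 for Lefty2 and 0.39 for Smad7. The gene exceeded its surroundings most in Smad7 (1.54 against 0.39) and Nodal (1.21 against 0.29). The values of Tdgf1 and its surroundings were close (0.86 against 0.82). Of the 18 surrounding tiles, 8 rose for Tdgf1, 8 for Lefty2, 6 for Lefty1, 4 for Smad7, 3 for Nodal and 3 for Gdf3. For Acvr2b 1 rose and 2 fell, and over all tiles 5.33% rose. The surroundings of Lefty1 and Lefty2 overlap each other in part. These pairs of values were not tested against each other.

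Day 1 of TET_WT was compared with day 0 to ask how much of this difference was present after the first day. None of the 7 genes passed, and neither did any gene of the 20717 (0% called by limma). The unadjusted p was under 0.05 in 2551 genes, including 1 of the 7, and limma-voom on the recovered reads called 188 genes. The 0 rests in part on 1 library, since 279 genes were called without day 0 replicate 2, none of them among the 7. Without day 1 replicate 3, 46 were called, and in the other fits that called any gene the number was 1 to 28. Lefty1 had values of -0.11 and -0.21 in the 2 day 1 libraries, against -0.68, -0.62 and -0.66 at day 0. Its groups did not overlap, and the difference was 0.49 (SE 0.14, adjusted p = 0.174). Nodal had values of -1.29 and -1.41 at day 1, against -2.53, -1.47 and -1.71 at day 0, also without overlap, with a difference of 0.56 (SE 0.30, adjusted p = 0.468). Over all genes 13.4% were higher at day 1 without overlap. The groups of the other 5 genes overlapped. Lefty2 differed by 0.16, Gdf3 by -0.16, Acvr2b by -0.08, Tdgf1 by -0.04 and Smad7 by -0.01, with adjusted p between 0.635 and 0.987. The SE of these differences ran from 0.11 in Acvr2b to 0.25 in Gdf3, so moderate changes at day 1 were not detectable. The median difference was -0.01 over the 7 genes and 0.09 over all genes.

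A single tile passed at day 1, chr1:180936001-180938000 in Lefty1. It rose by 1.37 (adjusted p = 0.0366) in a comparison where 0.601% of all tiles rose and 0.409% fell, with 8 and 31 reads at day 1 against 26, 7 and 33 at day 0. The libraries differ much in depth, and day 1 replicate 2 was the shallowest. The tile was not called without day 0 replicate 2, the library with 7 reads there, and no tile was called without day 2 replicate 1 or 2 or without any one DNMT_WT library. Without day 0 replicate 1, 2 tiles passed.

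Day 2 of TET_WT was then compared with day 1. In this comparison 5 of the 7 genes passed, all higher at day 2, where 9.59% of all genes passed, 8.99% as higher and 0.599% as lower. In all 7 genes the day 2 libraries lay above those of day 1, as in 28.2% of all genes. Smad7 again differed most, with 0.50, 0.88 and 0.51 at day 2 against -0.90 and -0.94 at day 1, a difference of 1.55 (SE 0.15, adjusted p = 0.000147). The other 4 that passed were Gdf3 at 0.91 (SE 0.25, adjusted p = 0.0349), Tdgf1 at 0.90 (SE 0.22, adjusted p = 0.0209), Lefty2 at 0.74 (SE 0.13, adjusted p = 0.00398) and Acvr2b at 0.40 (SE 0.11, adjusted p = 0.0331). Nodal differed by 0.65 (SE 0.30, adjusted p = 0.205) and Lefty1 by 0.44 (SE 0.14, adjusted p = 0.0642), and neither passed. The median was 0.74 over the 7 genes and 0.00 over all genes. Gdf3, Tdgf1 and Acvr2b each lost the call without either day 1 library and without day 2 replicate 2 or 3, at adjusted p between 0.0613 and 0.234, while Smad7 and Lefty2 passed in each such case. Gdf3 also lost it without DNMT_WT replicate 1 (0.0534) and Acvr2b without day 2 replicate 1 (0.076), and Lefty1 gained it without day 0 replicate 2 (0.0333). With median centring none of these 3 passed (0.0866, 0.0594 and 0.227 in Gdf3, Tdgf1 and Acvr2b), and without the variance trend, at equal depth or with a replicate block neither Gdf3 nor Acvr2b passed (0.0559 to 0.127). Gdf3 was also lost with voom (0.09), Tdgf1 with the span alone (0.165) and Acvr2b with 20 kb added (0.14, 0.306), which gave 0.89 in Smad7 and 0.33 in Gdf3. Nodal passed with 20 kb (0.0445), and Lefty1 with 20 kb (0.00452) or the span alone (0.00946).

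By tile, 23 of 71 rose at day 2 against day 1 and none fell (32.4%, where 2.41% of all tiles rose and 0.551% fell). Smad7 held 11 of them, Acvr2b 4, Gdf3 3, Tdgf1 2, Lefty2 2 and Nodal 1, and Lefty1 none. The Nodal tile chr10:61422001-61424000 rose by 1.99 (SE 0.37, adjusted p = 4.07e-05), with 3 and 22 reads at day 1 beside the day 2 numbers given above. The largest difference was in Smad7, at 3.40 in chr18:75376001-75378000, which was singled out after its value was seen. The count was 0 without the variance trend, 2 at equal depth and 13 without day 1 replicate 2. The comparisons with day 0 and with day 1 share the day 2 libraries, so they are not independent.

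**Figure D3:**
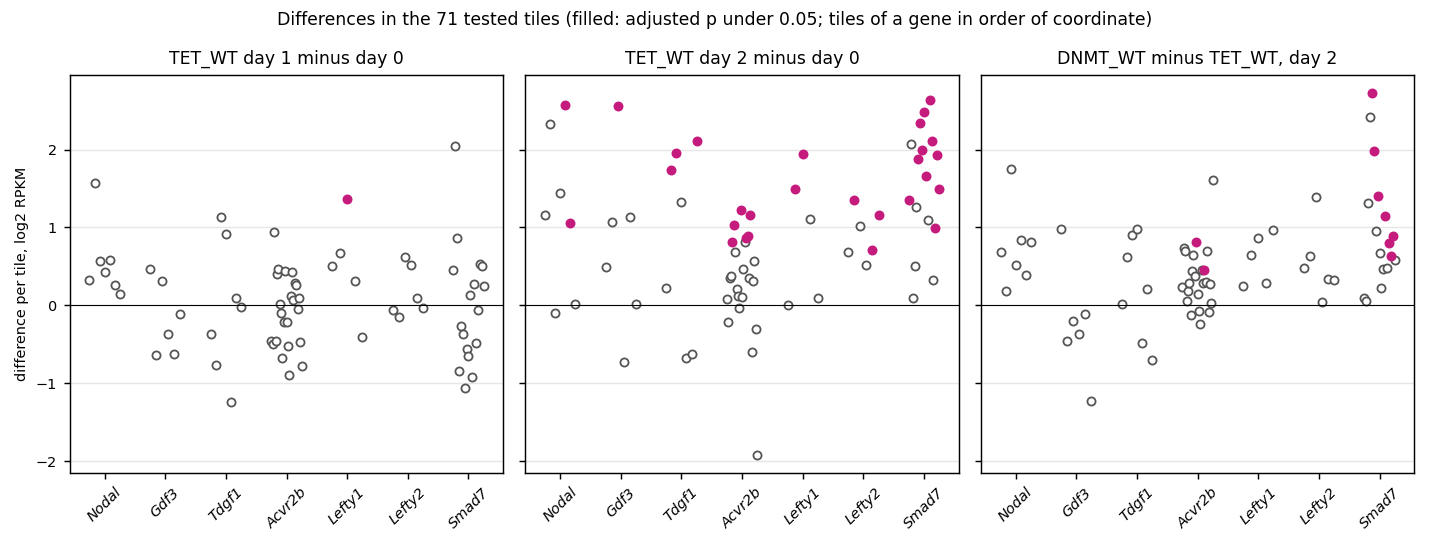
Difference in log2 RPKM of each of the 71 tested tiles (vertical axis), by gene and in order of coordinate (horizontal axis), for day 1 minus day 0, day 2 minus day 0 and DNMT_WT minus TET_WT at day 2. Filled points passed the adjusted p of 0.05: 1 tile at day 1, 28 at day 2 and 9 between the lines, all of them higher.

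DNMT_WT was compared with TET_WT at day 2, where both lines were labelled EpiLC. The TET_WT day 2 libraries are those used above. In 4 of the 7 genes 5hmC was higher in DNMT_WT, and in none lower, where 19% of all genes passed, 14.9% as higher and 4.07% as lower. Smad7 had values of 1.60, 1.51 and 1.75 in DNMT_WT against 0.50, 0.88 and 0.51 in TET_WT, a difference of 0.99 (SE 0.13, adjusted p = 0.000516). That is a 1.99-fold difference, with no overlap between the lines. Both antagonists passed. Lefty1 had 0.71, 1.02 and 0.90 in DNMT_WT against 0.33, 0.10 and 0.39 in TET_WT (difference 0.60, SE 0.12, adjusted p = 0.00526). Lefty2 had 1.78, 1.78 and 2.05 against 1.24, 1.37 and 1.39 (difference 0.54, SE 0.12, adjusted p = 0.00833). Acvr2b had 1.73, 1.502 and 1.71 against 1.27, 1.31 and 1.30 (difference 0.36, SE 0.10, adjusted p = 0.0205). At equal depth Lefty1 did not pass (0.128). The call of Acvr2b was lost without any one of TET_WT day 2 replicates 1, 2 and 3 (0.0777, 0.0536 and 0.0638) and DNMT_WT replicates 1 and 3 (0.0909 and 0.0792), and with the span alone (0.0528) or no variance trend (0.0551).

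The other 3 genes did not pass. Nodal had 0.28, -0.09 and -0.05 in DNMT_WT against -1.09, -0.48 and -0.51 in TET_WT. These groups did not overlap, and the difference of 0.74 (SE 0.27) had an adjusted p of 0.0708. It passed without day 0 replicate 1 (0.0225) or replicate 2 (0.0344), with voom (0.00723), with 20 kb added (0.0107) and with only the groups compared (0.0168). Tdgf1 differed by 0.22 (SE 0.20, adjusted p = 0.491) and Gdf3 by -0.23 (SE 0.22, adjusted p = 0.526), and in both the lines overlapped. With voom Tdgf1 differed by 0.41 and passed (0.0325). The groups were higher in DNMT_WT without overlap in 5 of the 7 genes and in 32.8% of all genes. The median difference was 0.54 over the 7 genes and 0.10 over all genes. When each library was centred on its median, the differences between lines were lower by 0.14 in every gene, Acvr2b (0.22, adjusted p = 0.243) and Lefty2 (0.40, adjusted p = 0.055) no longer passed, and 46.1% of the called genes of the genome were higher in DNMT_WT, against 78.5% uncentred.

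By tile, 9 of 71 were higher in DNMT_WT and none lower (12.7%, where 1% of all tiles were higher and 2.24% lower). Smad7 held 7 of them and Acvr2b 2. The largest was chr18:75372001-75374000 in Smad7, with 122, 51 and 89 reads in DNMT_WT against 13, 16 and 7 in TET_WT. It was higher by 2.73 (SE 0.54, adjusted p = 0.000197), and it had not passed between day 2 and day 0 (1.26, adjusted p = 0.168). The tile that had moved most between those days, chr18:75386001-75388000, was higher by 1.14 (SE 0.34, adjusted p = 0.0377), with 186, 71 and 141 reads in DNMT_WT against 44, 58 and 52 in TET_WT. In Nodal the tile chr10:61422001-61424000 held 170, 74 and 108 reads in DNMT_WT and differed by 0.84 without passing (adjusted p = 0.168). The Acvr2b tile chr9:119418001-119420000 was higher by 0.81 (SE 0.19, adjusted p = 0.0031). These tile counts moved with the fit, to 23 when only the libraries of both groups were fitted and to 0 without the variance trend or at equal depth. They were 3 without any one DNMT_WT library and 4, 5 and 4 without TET_WT day 2 replicates 1, 2 and 3.

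Other genes of the pathway, a list of 25 chosen from textbook knowledge, were measured in the same way. Between day 2 and day 0 of TET_WT, 10 of the 25 rose and none fell, where 15.3% of all genes rose and 2.51% fell, and the median difference was 0.32. The count was 6 with median centring and 6 without day 2 replicate 2. By role, 5 of 9 inhibitors and feedback genes, 3 of 3 targets, 1 of 3 ligands and 1 of 4 receptors rose, and 0 of 4 effectors and 0 of 2 convertases passed. Pmepa1, a membrane protein that sequesters Smad2 and Smad3, had 1.80, 1.95 and 1.76 at day 2 against 0.46, 0.90 and 0.40 at day 0 and rose by 1.25 (SE 0.12, adjusted p = 3.08e-05). Ski, a nuclear repressor of Smad complexes, rose by 0.81 (SE 0.11, adjusted p = 0.000268). Gsc, a homeobox target gene, rose by 0.67 (SE 0.12, adjusted p = 0.0019), and Eomes, a T-box target gene, by 1.33 (SE 0.25, adjusted p = 0.00308). Gsc differed by -0.08 with 20 kb added on both sides, and Eomes by 0.27 (adjusted p = 0.101) with limma-voom on the reads. The others that passed were Inhbb, Acvr1b, Skil, Tgif1, Tgif2 and Mixl1. Smad2, Smad3 and Smad4, the transducers of the signal, differed by 0.32, 0.07 and 0.15, with adjusted p between 0.263 and 0.757.

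In this list 0 of 25 genes passed at day 1 against day 0 (median 0.17), and 3 rose at day 2 against day 1 (median 0.27), a share near that of all genes (8.99% higher). These were Pmepa1 at 0.84 (SE 0.13, adjusted p = 0.00208), Ski at 0.64 (SE 0.12, adjusted p = 0.00502) and Skil, a relative of Ski, at 0.39 (SE 0.09, adjusted p = 0.0167). Without day 0 replicate 2, 2 genes of the list were called at day 1, and at day 2 against day 1 the count was 6, with 5 without day 0 replicate 1 and 1 with median centring. Ski was not called with voom, median centring or equal depth, and Skil was not called with voom (0.101), median centring (0.134), no tile filter (0.0711) or no variance trend (0.0589), nor without day 1 replicate 3 (0.106) or day 2 replicates 1 or 2 (0.0538 and 0.074). Between the lines at day 2, 6 of the 25 were higher in DNMT_WT and none lower (median 0.10), among them 2 of 3 targets, where 14.9% of all genes were higher and 4.07% lower. The count was 10 without day 0 replicate 2, 10 with only the groups compared and 11 with voom. Gsc had 1.68, 1.54 and 1.76 in DNMT_WT against 0.33, 0.27 and 0.20 in TET_WT, a difference of 1.40 (SE 0.12, adjusted p = 3.8e-05). Tgif1, a homeodomain repressor of Smad complexes, differed by 1.22 (SE 0.28, adjusted p = 0.00988, and 0.054 without DNMT_WT replicate 1), Foxh1, the Smad partner, by 1.16 (SE 0.24, adjusted p = 0.00631), and Fst, a secreted antagonist of activin, by 0.78 (SE 0.15, adjusted p = 0.00471). The Fst difference was 0.04 with 20 kb added on both sides (adjusted p = 0.812). Gdf1 and Eomes also passed.

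**Figure D4:**
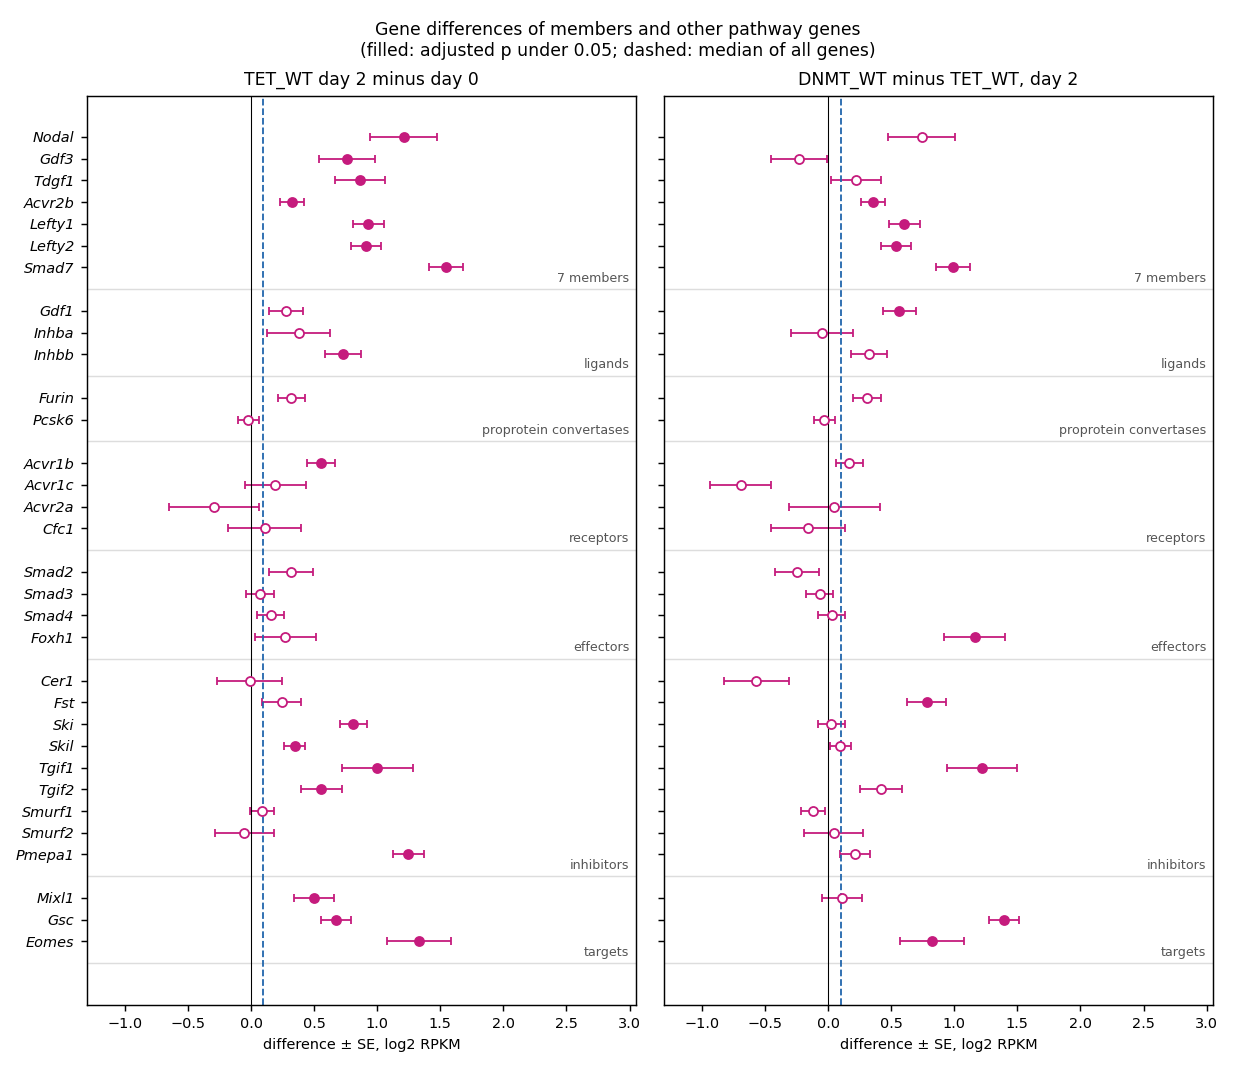
Difference in gene value ± SE (horizontal axis, log2 RPKM) for the 7 genes and the 25 other pathway genes by role (vertical axis), for day 2 minus day 0 in TET_WT and DNMT_WT minus TET_WT at day 2. Filled points passed the adjusted p of 0.05, 17 genes in the first comparison and 10 in the second, all higher, and the dashed line is the median of all genes, at 0.09 and 0.10.

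Across all 11 libraries the genes whose values most resembled those of each member were found by Pearson correlation, as a description. Left out of this search were predicted genes (Gm or Rik names), olfactory and vomeronasal receptors, and genes that share a tile with the member. Smad7 was nearest to Jak3 (r = 0.996) and Mtcl1 (0.995), Lefty2 to Sh2b1 (0.990) and Ccl17 (0.988), Lefty1 to Rnf26 (0.987) and Iqgap1 (0.987), and Acvr2b to Fscn2 (0.990) and Pola2 (0.990). Nodal was nearest to Trappc3 (0.985) and Cenpt (0.982) and Tdgf1 to Mgarp (0.983) and Tubb2b (0.980). Gdf3 had the weakest nearest genes, Trip6 (0.920) and Tmem154 (0.906). The 11 points are the same libraries for every gene and fall in 4 groups, so such values arise for any gene that follows the groups.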

How the data were processed

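Genomic DNA was sheared by sonication and 5hmC fragments were captured with the HMCP kit, per the labels' protocols. Trim Galore 0.6.5, cutadapt 2.3, Bowtie2 2.4.1 and GRCm38 are named in the submitters' processing notes. What software assigned reads to tiles is not given in the sources used here. The authors deposited log2 RPKM per 2 kb tile, and all values lay within 0.1% of whole reads, tiles without reads holding the value of 0.9 reads. The sum of these reads was 2.32 times the library total that the RPKM scaling implies, in every library alike.

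Tiles on chromosomes 1 to 19 and X were used, without the 10% lowest and 0.1% highest by mean, which left 1183888 of 1316897. Gene values were means over at least 3 tiles (20717 of 21631 protein-coding genes of the GRCm38.p6 annotation). The 11 libraries were analysed in one limma 3.58.1 fit in R 4.3.3 (lmFit, eBayes with trend, with the package data.table, version 1.17.8), with two-sided Benjamini-Hochberg adjustment over all genes or tiles of a comparison and calls under 0.05. Fold changes are of the mean on the log2 scale. The fit was tried on simulated reads, drawn independently for each tile with the same spread in every library. That trial does not cover a library that stands apart, as day 0 replicate 2 does, or tiles that share fragments. The genes and lists were chosen with earlier results of these data known. Named tiles of a gene were those with the highest mean and the largest difference in each direction, and those over the start. Other tiles were named after their values were seen. Named pathway genes were the 4 called with the smallest p, and 1 gene of the pathway list is not reported here. Likeness named the 2 highest correlations, leaving out predicted genes, olfactory and vomeronasal receptors and genes that share a tile with the member. Alternatives were limma-voom on recovered reads, median centring, no tile filter, the span alone or with 20 kb, only the groups compared, no variance trend, a replicate block, equal depth and each library left out. Leaving out day 0 replicate 2 and day 1 replicate 2 together was chosen after seeing the data.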

Additional observations from a re-analysis of the deposited data

Results flagged for a closer look

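The Acvr2b tile chr9:119432001-119434000 was left out of the tests because it lay among the 0.1% of tiles with the highest mean. Its mean was 3.92 log2 RPKM over the 11 libraries, the highest of the 72 tiles. The group means were 4.26 in DNMT_WT at day 2 and 3.75, 3.85 and 3.78 in TET_WT at days 0, 1 and 2. It held 715, 276 and 463 reads in DNMT_WT and 356, 231 and 313 at day 2 of TET_WT.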

How the results depend on the processing

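Reads limit single tiles, and the count of tiles called depended on the fit more than the count of genes did. Of the 7 genes, the number called at day 2 against day 0 was 4 at equal depth and 4 to 7 with a library left out. At day 2 against day 1 it was 2 with median centring, 3 without the variance trend, 3 at equal depth and 2 to 6 with a library left out, and between the lines 2 with median centring and 3 to 5 with a library left out. At day 1 against day 0 it was 0 in each. Of the 71 tiles, day 2 against day 0 gave 12 without the variance trend, 11 at equal depth and 23 to 34 with a library left out. Day 1 against day 0 gave 0 with median centring, with only the groups compared, without the trend and at equal depth, 2 with day 0 replicate 2 and day 1 replicate 2 left out together, and 0 to 2 with 1 library left out. Day 2 against day 1 gave 0 without the trend, 2 at equal depth and 13 to 24 with a library left out. The lines gave 23 with only the groups compared, 0 without the trend, 0 at equal depth, 19 with both libraries left out and 3 to 13 with 1 left out. Signs changed only where the value was not called in the main fit, except for Gsc. At day 1 against day 0, Tdgf1 was 0.055 with voom, 0.094 with 20 kb, 0.028 with the span alone and 0.11 at equal depth, and -0.20 to 0.086 with a library left out. Acvr2b was 0.11 with voom, 0.018 with both libraries left out and -0.12 to 0.0017 with 1 left out. Smad7 was 0.18 with voom, 0.056 with 20 kb, 0.20 at equal depth and -0.095 to 0.067 with a library left out. With both libraries left out Gdf3 was 0.022 and Lefty2 -0.081, and Lefty2 was -0.057 to 0.39 with 1 left out. At day 2 against day 0, Gsc was -0.081 with 20 kb, the Nodal tile starting at 61426001 was -0.28 at equal depth and -0.36 to 0.31 with a library left out, the Nodal tile starting at 61418001 was 0.29 with both left out and -1.18 to 0.59 with 1 left out, and the Tdgf1 tile starting at 110944001 was 0.53 at equal depth. The cause was not tested. Median centring lowered the differences of gene values by 0.14, 0.02 and 0.12 at day 2 against day 0, day 1 against day 0 and day 2 against day 1. Tiles were centred on the tile median, and at day 2 against day 0 their differences shifted upwards instead. The Nodal tile starting at 61422001 went from 2.57 to 2.66 and the Smad7 tile starting at 75394001 from 1.93 to 2.02. The share of called genes that were higher was then 60.6% against 85.9% at day 2 against day 0, and 79.6% against 93.8% at day 2 against day 1. With voom, 6898, 188, 988 and 6649 genes were called in the order of day 2 against day 0, day 1 against day 0, day 2 against day 1 and the lines, where the main fit called 3689, 0, 1986 and 3929.

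Whether replicate numbers pair the libraries could not be settled here. Deviations from the mean of a group of 2 or 3 libraries cancel out within the group, so their correlations are tied to each other. Same-numbered libraries of different groups correlated between -0.29 and 0.30 in their deviations, with 2 of 15 pairs over 0.1, and a library correlated best with its own number in 14 of 30 cases. With the replicate block, 5, 0, 3 and 4 of the 7 genes were called in the same order of comparisons, and 29, 1, 22 and 9 of the tiles.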
